A study of Caenorhabditis elegans with 4 samples.

Results

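The regions described are the LIN-13 binding peaks on chromosome III of Caenorhabditis elegans. They were chosen by chromosome: every peak that the authors' combined list places on III is included, 213 of the 911 peaks of that list. Chromosomes II, IV, V and X, with 129, 171, 126 and 110 combined peaks, served as background. The rest of the list lies outside these chromosomes and is not described. The peaks exist because the authors' peak caller passed them, and chromosome III was singled out for its number of peaks in these same lists, so counts and densities are given as descriptions without a test.

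LIN-13 is a protein with many zinc fingers that belongs to the synthetic multivulva class B group, whose members act with LIN-35, the worm retinoblastoma protein, and with the heterochromatin protein HPL-2 to keep genes silent. Loss of these factors derepresses germline genes in somatic tissue and, together with loss of a class A gene, gives extra vulval tissue. The autosomes of the worm have a gene-rich central region and repeat-rich arms that carry more repressive histone methylation, which makes the position of a peak along the chromosome a basic part of its description. The gene lin-13 itself lies on chromosome III, as does unc-119, the marker gene of the strain, according to the RefSeq gene table of the WBcel235 assembly.

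The libraries came from L1 larvae of hermaphrodite strain OP49, grown at 20 °C; a further stage entry, 26dC, is not explained. OP49 has the mutation unc119(ed3) and the transgene wgIs49, introduced by bombardment, in which lin-13 is joined to TY1, EGFP and FLAG tags beside an unc119 copy. The study made 2 ChIP libraries with a goat antibody against GFP and 2 input libraries of the same strain. All of them therefore carry the mutation and the transgene, which adds lin-13 and unc-119 sequence to the native genes. The insertion site and copy number of the transgene were not analysed here. Titles and source names give the groups used, and the replicate peak lists come from libraries titled ChIP. The description fields run the other way and name the antibody on the samples titled Input. Nothing in the labels states that replicates 1 and 2 were separate cultures, so spread between them may be technical.

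Each list gives a position on the WormBase WS180 build and a q-value, the authors' multiple-testing corrected p for that peak. Strength is given below as −log10 q, which grows as q falls and depends on read depth and peak width as well as on enrichment. Read depth is unknown, so no value below can be weighed by it. Of the 3 lists, the combined list has 213 peaks on chromosome III, the replicate 1 list has 70 of its 243 peaks there (28.8%) and the replicate 2 list has 90 of its 367 (24.5%). The weakest chromosome III peak of the combined list has q = 7.52e-05, that of replicate 1 has q = 2.76e-05 and that of replicate 2 has q = 4.38e-05. The combined peaks cover 154 kb of the chromosome, the replicate 1 peaks 42.7 kb and the replicate 2 peaks 58.7 kb. Combined peaks cover 1.12% of the 13.7 Mb span of III, against 0.754% on II, 0.775% on IV, 0.557% on V and 0.625% on X.

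Peaks were denser on chromosome III than on each of the 4 background chromosomes in all 3 lists. The replicate lists had 5.83 ± 1.03 peaks per Mb on III (SD, n = 2 lists), against 3.46 ± 1.04 on II, 3.65 ± 1.06 on IV, 1.97 ± 0.68 on V and 2.15 ± 0.88 on X. The lower of the III values, 5.10 in replicate 1, lay above the higher value of every background chromosome, the nearest being 4.40 on IV in replicate 2. In the combined list the density on III was 1.57 times that on IV, 1.81 times that on II, 2.50 times that on X and 2.56 times that on V. Within the replicate lists it was 1.76 times that on IV in replicate 1 and 1.49 times in replicate 2. The ratio to V was 3.42 in replicate 1 and 2.67 in replicate 2. Among combined peaks with q at least 10 times below the highest of the list, III had 11.9 per Mb, against 7.35 on IV, the next highest of the background chromosomes.

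The excess ran along most of the chromosome. The span of each chromosome was divided into 10 equal bins, each 1.37 Mb long on III. The number of combined peaks in these bins of III, from the left end to the right, was 12, 39, 20, 20, 16, 25, 22, 22, 17 and 20. Every bin of III was denser than the median background bin (7.34 combined peaks per Mb over 40 bins). Of the 10, 7 were denser than the fullest background bin, which had 14.5 per Mb. Among these 7, bins 3, 4 and 10 lay barely above it, at 14.6 per Mb each. Bin 2 of III was the fullest of the chromosome, with 28.4 per Mb, and bin 1 the emptiest, with 8.75 per Mb. Without the largest cluster, which lies in bin 2 and is described further on, that bin held 26 peaks and the whole chromosome 14.6 per Mb (exact Poisson 95% interval 12.7 to 16.8).

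The excess over the fullest background bin was smaller in the replicate lists. In replicate 1, 4 of the 10 bins of III lay above it (5.99 peaks per Mb), and in replicate 2, 1 did (9.32 per Mb). Both lists had 14 peaks in bin 2 and 11 in bin 6. Bin 5 was low in both, with 2 peaks in replicate 1 and 4 in replicate 2, and 1 of its 16 combined peaks was found in both replicates. The lists differed most in bin 7, where replicate 1 had 4 peaks and replicate 2 had 12. Of the 22 combined peaks there, 3 were found in both replicates and 7 in replicate 2 alone. Of the 10 bins of III, 9 exceeded the median background bin in replicate 1 (1.72 peaks per Mb) and 8 did in replicate 2 (3.33 per Mb). Bin 5 fell below it in both lists, as did bin 1 in replicate 2.

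**Figure D1:**
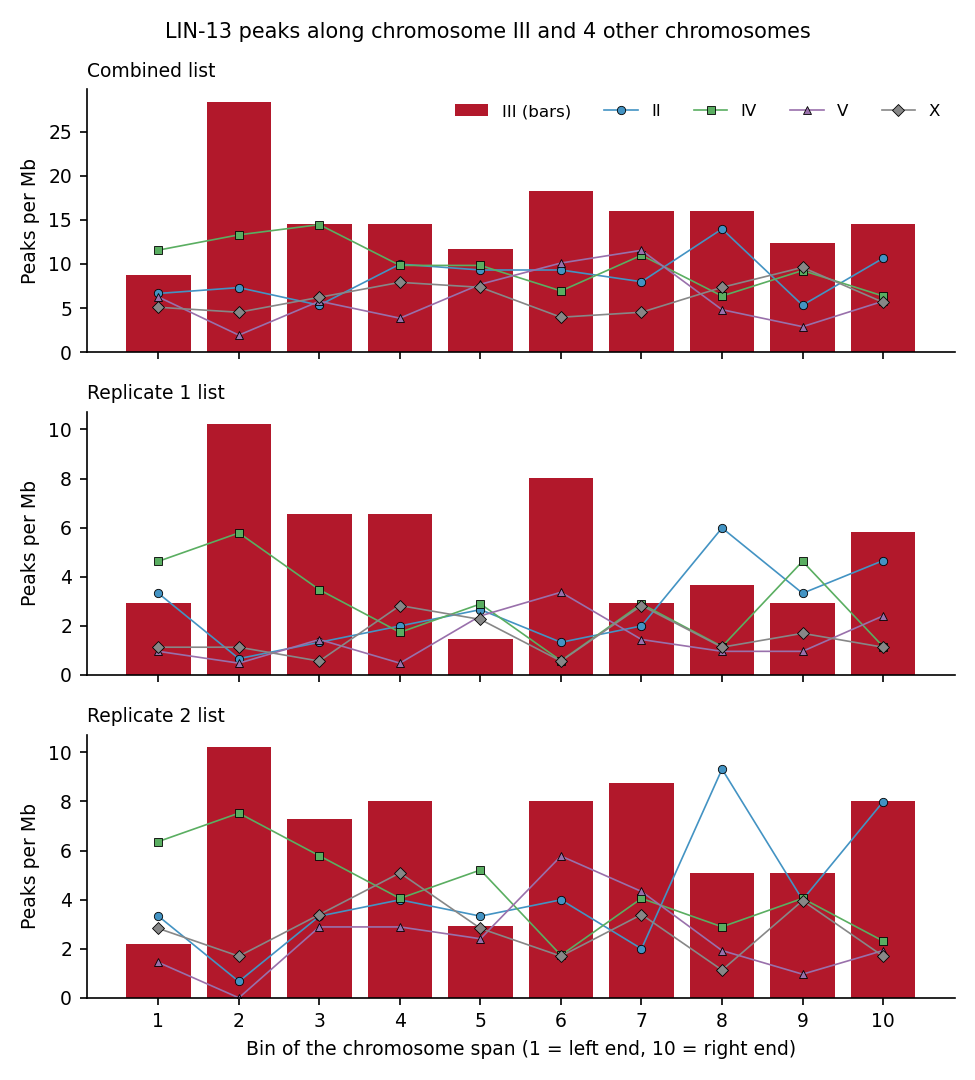
Peaks per Mb (y) in each of 10 equal bins of the chromosome span (x), for the combined list, replicate 1 and replicate 2, with chromosome III as bars and chromosomes II, IV, V and X as marked lines. Bin 2 of III stands highest in all 3 panels, with 39, 14 and 14 peaks, and bin 5 is low in both replicate panels.

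The span was also divided into 3 equal segments. The left, central and right segments of III held 79, 70 and 64 combined peaks, and the central one held 32.9% (exact 95% interval 26.6 to 39.6). The central share was 35.7% on II, 30.4% on IV, 47.6% on V and 32.7% on X. The left segment held 37.1% of the peaks of III, and 33.0% without the largest cluster. In replicate 1 the left, central and right segments held 30, 23 and 17 of the III peaks (42.9%, 32.9% and 24.3%). In replicate 2 they held 31, 33 and 26 (34.4%, 36.7% and 28.9%). The right segment held the fewest peaks of III in all 3 lists, while the left one held the most in the combined and replicate 1 lists and the central one in replicate 2.

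The strongest peak of III, at 10758850 to 10759478, ranked 3 in each of the 3 whole lists. Its combined −log10 q was 50.3, with 26.4 for replicate 1 and 36.3 for replicate 2, and the replicate centres lay within 21.0 bp of the combined one. The next, at 7162158 to 7162754, had a combined −log10 q of 38.7, with 20.1 for replicate 1 and 23.0 for replicate 2. After it came 7854312 to 7854841, with a combined −log10 q of 35.1, a replicate 1 value of 15.9 and a replicate 2 value of 23.5. Their widths were 629, 597 and 530 bp, at or above the median of III given further on, and in each the replicate 2 value was the higher of the replicates.

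A pair of regions near the left end followed with almost equal strength. The region at 1859498 to 1859943 had a combined −log10 q of 29.4, with 15.8 for replicate 1 and 14.1 for replicate 2. The strongest peak of the largest cluster, 1938003 to 1938991, had a combined −log10 q of 29.3, with 14.8 for replicate 1 and 14.0 for replicate 2. In both regions replicate 1 was the higher of the replicates.

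Further regions of this set differed more between the replicates. At 5678844 to 5679367 the combined −log10 q was 27.3, while replicate 1 had 10.2 (rank 53) and replicate 2 had 18.7 (rank 18). At 7497954 to 7498762 the combined value was 25.7, while replicate 1 had 14.2 and replicate 2 had 19.3. In contrast, 3867012 to 3867972 had a combined −log10 q of 24.7 and nearly equal values of 22.0 for replicate 1 and 21.9 for replicate 2. This region ranked 6 in replicate 1 and 11 in replicate 2 but 34 in the combined list. Among the 15 strongest regions held by both replicates, its combined value exceeded the higher replicate value by the least.

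The remaining 7 of these 15 regions lay between −log10 q of 20.9 and 24.7 in the combined list. They were 8043699 to 8044124, 3456218 to 3456598, 4899128 to 4900168, 4280008 to 4282903, 4236058 to 4236703, 12612162 to 12613031 and 6971819 to 6972275. Their replicate values ran between 8.99 and 13.9 in replicate 1 and between 9.70 and 16.4 in replicate 2. The region at 4280008 to 4282903 was the broad one, with 2896 bp in the combined list, 1301 bp in replicate 1 and 1241 bp in replicate 2. Its replicate centres lay 778.5 bp and 810.5 bp to the right of the combined centre, so both replicates marked its right side alone. Of the 15 regions, 5 lay in bin 6.

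Over the 53 chromosome III regions held by both replicates, strength rose together in the lists. Spearman's rho between the replicate −log10 q values was 0.71 and Pearson's r was 0.87, or 0.63 and 0.75 without the 5 strongest regions. The points are regions of a single pair of libraries and share their depth, and a region enters only if both replicates called it, so no p is given. The median was 7.91 in replicate 1 and 9.70 in replicate 2, and replicate 2 was higher in 36 of 53. The combined value exceeded both replicate values in all 53. The other chromosomes were similar. On II, IV, V and X, rho was 0.56, 0.58, 0.61 and 0.85. Replicate 2 was higher in 25 of 35 regions on II, 28 of 42 on IV, 15 of 22 on V and 21 of 26 on X. The combined value exceeded both in 35, 41, 22 and 24 of these regions.

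Position and width were close as well. The replicate centres of these 53 regions lay a median of 25.5 bp apart, 43 of 53 within 100 bp, and at most 484.5 bp apart. Median widths were 630 bp in the combined list, 465 bp in replicate 1 and 445 bp in replicate 2. The combined peak was wider than both replicate peaks in 36 of 53 regions, and the median ratio of its width to the wider of them was 1.07. Each of the 53 regions met a single peak in each replicate list. On II, IV, V and X, 34, 42, 22 and 26 regions did so. Their replicate centres lay a median of 24.5, 42.75, 43.5 and 31.0 bp apart. The combined peak was wider than both replicate peaks in 24, 36, 15 and 17 of them, with median ratios of 1.07, 1.08, 1.06 and 1.04. The values of III were thus like those elsewhere. Across the chromosome, 2 combined peaks met more than 1 replicate 2 peak, and none met more than 1 replicate 1 peak.

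**Figure D2:**
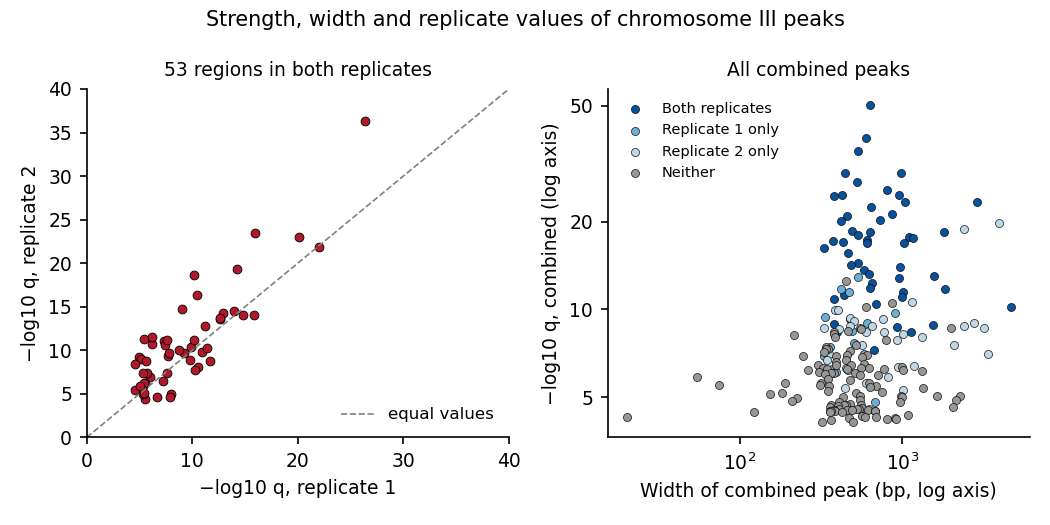
Left, −log10 q in replicate 1 (x) and replicate 2 (y) for the 53 chromosome III regions in both replicates, with the line of equal values; 36 points lie above it. Right, width in bp and combined −log10 q (both log axes) for the 213 combined peaks by replicate support; peaks found in both replicates fill the top, with a median of 16.9, and peaks in neither the bottom, with a median of 5.45.

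Replicate support was next set against the other chromosomes to ask whether the many peaks of III were less often found again. Of the 213 combined peaks on III, 53 overlapped a peak of both replicates (24.9%, exact 95% interval 19.2 to 31.2), 15 a replicate 1 peak alone, 34 a replicate 2 peak alone and 111 neither (52.1%, 45.2 to 59.0). The background over II, IV, V and X was 23.3% in both and 53.0% in neither. Over all 911 peaks the shares were 21.5% and 56.3%, but these include III itself and peaks outside all of these chromosomes. The share in both on III minus that on II, IV, V and X was 1.56 percentage points (Newcombe 95% interval −4.96 to 8.64). For peaks in neither it was −0.87 points (−8.76 to 6.98). Both intervals include 0 and leave room for differences of several points. All intervals given here cover counting error only, and peaks close to each other are not independent. The intervals are not adjusted for the number of comparisons, so a single interval that leaves out 0 carries little weight.

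Set against single chromosomes, the share in both on III differed by −2.25 points from II (−12.1 to 7.06), 0.32 from IV (−8.45 to 8.85), 7.42 from V (−1.83 to 15.8) and 1.25 from X (−8.99 to 10.6). None of these 4 intervals excludes 0. The share of peaks in replicate 1 alone was 7.04% on III and 0.91% on X, where 1 peak of 110 was of this kind, a difference of 6.13 points (1.24 to 10.4). The same share was 3.10% on II, 4.09% on IV and 7.14% on V.

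**Figure D3:**
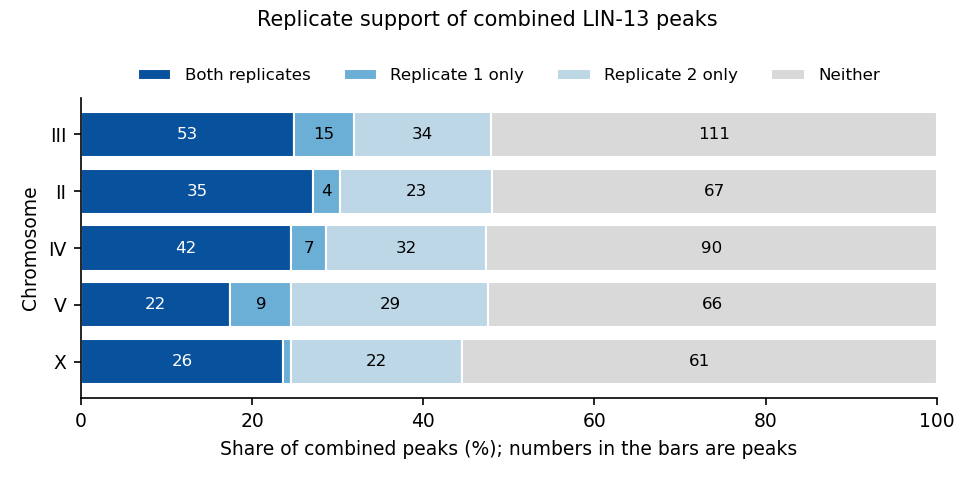
Share of combined peaks (x, percent) found in both replicates, in replicate 1 alone, in replicate 2 alone or in neither, by chromosome with III at the top; numbers are peaks. The share in both is 24.9% on III and between 17.5% on V and 27.1% on II elsewhere.

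Support followed strength on III as elsewhere. Among ranks 1 to 227 of the combined list, III had 57 peaks, of which 46 were in both replicates (80.7%, exact 95% interval 68.1 to 90.0). On II, IV, V and X the share there was 98 of 132 (74.2%, 65.9 to 81.5). Among ranks 228 to 455 it was 7 of 56 on III (12.5%) and 25 of 132 on the others (18.9%). Among ranks 456 to 683 it was 0 of 53 on III, with an upper exact bound of 6.72%, and 2 of 131 on the others. Below rank 683 it was 0 of 47 on III and 0 of 141 on the others. These classes held 57, 56, 53 and 47 peaks of III, so the chromosome contributed to all strengths. The median −log10 q of its combined peaks was 6.98, against 6.72 on II, 6.91 on IV, 6.32 on V and 6.13 on X.

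Peaks of III in both replicates had a median combined −log10 q of 16.9, and those in neither had 5.45. Since the combined and replicate lists may rest on the same reads, this gap is a description and not separate evidence. Peaks in replicate 1 alone had 7.67 and peaks in replicate 2 alone 8.30. The strongest in replicate 2 alone was 9050979 to 9054914, 3936 bp wide, with a combined q of 1.83e-20 and rank 59. Replicate 2 had 2 peaks within it, at q = 9.62e-09 and q = 8.3e-08. The strongest in replicate 1 alone was 5706084 to 5706620, with a combined q of 1.14e-13 and a replicate 1 q of 3.79e-06. The strongest in neither was 5227920 to 5228372, with a combined q of 2.95e-13 and rank 153.

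The replicate lists were then compared directly. Of the 70 replicate 1 peaks on III, 53 overlapped a replicate 2 peak (75.7%, exact 95% interval 64.0 to 85.2), against 85.2% on II, IV, V and X. The difference was −9.52 points (Newcombe 95% interval −21.7 to 1.25). The widest difference was from X, where 26 of 27 replicate 1 peaks were shared (96.3%), at −20.6 points (−32.2 to −3.69). Of the 90 replicate 2 peaks on III, 53 overlapped a replicate 1 peak (58.9%, 48.0 to 69.2), against 53.1% on II, IV, V and X, a difference of 5.75 points (−6.31 to 17.2). The strongest peaks of III were all shared: the 35 strongest of replicate 1 and the 35 strongest of replicate 2 each met a peak of the other list. In replicate 1 these were 50.0% of the III peaks, against 53.7% on II, 56.0% on IV, 29.0% on V and 92.6% on X. In replicate 2 they were 38.9%, against 15.9% on II, 19.7% on IV, 13.7% on V and 34.7% on X. In replicate 2 the first unshared peak of III had rank 120, at 1924884 to 1925859 inside the largest cluster, against rank 76 on II, 67 on IV, 62 on V and 101 on X. In replicate 1 the first unshared peak of III had rank 130, against 150 on II, 135 on IV, 110 on V and 232 on X.

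Nearly all replicate peaks of III were in the combined list, 68 of 70 from replicate 1 and 89 of 90 from replicate 2. The same held on II, IV, V and X, with 147 of 149 from replicate 1 and 234 of 239 from replicate 2. The exceptions on III were 11036025 to 11036549 (q = 1.69e-06) and 13068133 to 13068793 (q = 1.58e-05) in replicate 1, and 344069 to 344602 (q = 3.7e-05) in replicate 2. None of these 3 overlapped a peak of the other replicate.

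Peaks of III were of ordinary width. The median was 530 bp in the combined list (quartiles 387 and 790), against 506 bp on II, 574 bp on IV, 545.5 bp on V and 672 bp on X. Peaks of 1 kb or more made up 34 of 213 on III (16.0%), against 20.2% on II, 22.2% on IV, 24.6% on V and 30.9% on X. In the replicate lists the median width averaged 466 ± 3.54 bp on III (SD, n = 2 lists), against 501 ± 38.2 bp on II, 441 bp in both lists on IV, 559 ± 15.6 bp on V and 761.5 ± 7.78 bp on X. The median width on III was below those on V and X in every list. Spearman's rho between width and −log10 q over the 213 peaks was 0.24, a description across peaks of 1 list.

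The widest peak of III, at 7707907 to 7712562, was 4656 bp wide and was held by both replicates, as a peak of 3120 bp in replicate 1 and of 3425 bp in replicate 2. Its combined q was 6.01e-11, with 1.71e-08 in replicate 1 and 2.22e-10 in replicate 2. It was moderate in strength, at rank 208. The gene table, which has the WBcel235 build, places lin-13 close to this position. Whether this peak lies in lin-13, whose sequence the transgene adds to every library, cannot be told without an annotation of WS180. The part of the transgene in the width and replicate support of the peak was not tested. The next were 9050979 to 9054914, 832864 to 836231 (3368 bp) and 8799690 to 8802899 (3210 bp), all found in replicate 2 and not in replicate 1, and then 4280008 to 4282903. Of the 34 peaks of at least 1 kb, 12 were in both replicates and 10 in neither. Those in both were 5 of 26 on II, 13 of 38 on IV, 10 of 31 on V and 10 of 34 on X, and those in neither were 12, 18, 8 and 12 on the same chromosomes.

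At the other end, 7 peaks of III were under 200 bp and none of them was in a replicate list. Of all 213 peaks of III, 52.1% were in neither. Peaks under 200 bp in neither replicate were 2 of 2 on II, 1 of 2 on IV and 1 of 1 on V, and X had none so narrow. The narrowest on III was 20 bp, at 1599089 to 1599108, with q = 5.19e-05. The next were 54 bp at 5637426 to 5637479 and 74 bp at 1936862 to 1936935, inside the largest cluster. The narrowest replicate peaks on III were 230 bp in replicate 1 and 262 bp in replicate 2.

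Spacing followed density. The median gap from the end of a combined peak to the start of the next was 46.2 kb on III (quartiles 12.1 and 85.1 kb), against 79.5 kb on II, 55.5 kb on IV, 99.0 kb on V and 117 kb on X. In each replicate list the median gap on III was 118 kb. Divided by the mean spacing of the chromosome (64.4 kb on III), the median combined gap was 0.72 on III, 0.68 on II, 0.55 on IV, 0.60 on V and 0.73 on X. On this scale the value for III lay within the range of the others. The standard deviation of the combined gaps was 1.17 times their mean on III and 0.95 to 1.13 times on the others. It was 1.11 times on III without the largest cluster. In replicate 1 the ratio was 1.19 on III and 0.77 to 1.05 on the others. In replicate 2 it was 0.97 on III and 0.87 to 1.41 on the others, so the lists differed.

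Gaps under 1 kb numbered 16 of 212 on III (7.55%), of which 7 lay inside the largest cluster. They were 13 of 170 on IV (7.65%), 5 of 109 on X (4.59%), 2 of 125 on V (1.60%) and 1 of 128 on II (0.78%). The longest stretch of III without a combined peak ran 472 kb, from 5872106 to 6344606, and neither replicate had a peak in it. The next, of 404 kb, lay near the left end from 87524 to 491095, and held 1 replicate 2 peak, the one at 344069 that the combined list lacks. After it came a stretch of 363 kb, from 6608441 to 6971819, with no replicate peak.

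**Figure D4:**
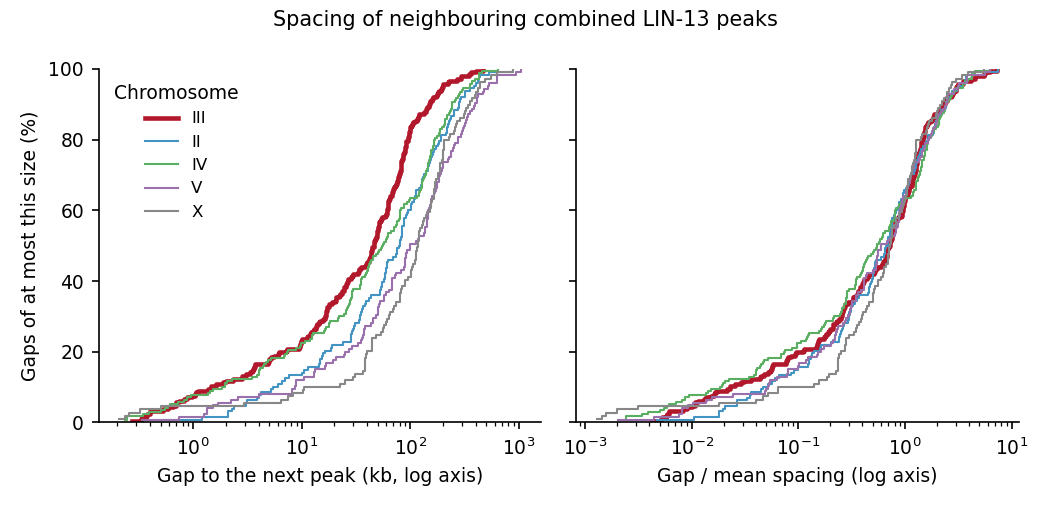
Cumulative share of gaps between neighbouring combined peaks (y, percent) by gap size in kb (left) and by gap divided by the mean spacing of the chromosome (right), both on log axes. Left, the curve of III runs with that of IV at short gaps and to the left of all others at long ones, with a median of 46.2 kb; right, it lies among the others, with a median of 0.72.

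Clusters were defined as 3 or more peaks with each gap at most 10 kb. Chromosome III had 7 clusters with 33 of its 213 combined peaks (15.5%). Chromosome IV had 8 clusters with 25 of 171 peaks (14.6%), X had 3 with 9 (8.18%), II had 2 with 6 (4.65%) and V had 1 with 3 (2.38%). One combined cluster of III held 13 peaks, while no combined cluster of the other 4 chromosomes had more than 4. Without it, III had 6 clusters with 20 of 200 peaks (10.0%), a share below that of IV. In the replicate 1 list III had 2 clusters with 7 peaks (10.0%), against 1 with 4 on II (9.76%) and none on IV, V and X. In the replicate 2 list III had 3 clusters with 11 peaks (12.2%), against 2 with 7 on II (11.1%), 2 with 6 on X (12.2%) and none on IV and V. The clustered shares of III in the replicate lists were thus close to those of II in both and of X in replicate 2. The largest cluster of III had 4 peaks in replicate 1, as on II, and 5 in replicate 2, against 4 on II. These replicate counts depend on the chaining distance, since gaps of 10222 bp in replicate 1 and 11093 bp in replicate 2 cut the run. With 20 kb the largest cluster of III had 5 peaks in replicate 1 and 6 in replicate 2. The largest on II then had 4 in each list, and those on IV, V and X had fewer. The count of 13 peaks was reached in the combined list alone.

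The largest cluster spans 36.0 kb, from 1920862 to 1956900, and its 13 peaks cover 9196 bp of it. Its strongest peak, 1938003 to 1938991, had a combined q of 4.57e-30, with 1.67e-15 in replicate 1 and 9.9e-15 in replicate 2. A supported peak opened the cluster at 1920862 to 1921871, with a combined q of 3.14e-12, a replicate 1 q of 1.91e-06 and a replicate 2 q of 3.79e-08. Another lay near its right end at 1950139 to 1951134, with a combined q of 1.01e-11, a replicate 1 q of 1.91e-09 and a replicate 2 q of 8.19e-11. These 3 were the ones that both replicates held, and their widths were 989, 1010 and 996 bp.

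Between the left supported peak and the strongest one lay a dense stretch in which the replicates did not coincide. It opened with a peak of 2420 bp at 1923329 to 1925748, with a combined q of 1.38e-19 and a replicate 2 q of 5.44e-09, where its right part alone was marked. Then came 1926119 to 1927041, with a combined q of 1.46e-08 and a replicate 2 q of 3.87e-06. It was followed by 3 peaks of 547, 339 and 209 bp that neither replicate held, at 1927915 to 1928461, 1928733 to 1929071 and 1929601 to 1929809. Their combined −log10 q was 4.88, 7.42 and 4.83.

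Gaps here were short: 370, 873, 271, 529, 378 and 732 bp separated the peaks in turn from 1923329 onwards. The stretch closed with 1930188 to 1930660, held by replicate 2 alone (q = 2.93e-06 there), and 1931393 to 1931880, held by replicate 1 alone (q = 4.07e-07 there). This last combined peak began at the same base as the replicate 1 peak.

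The right part of the cluster was sparser. A 74 bp peak at 1936862 preceded the strongest peak by 1067 bp and was in neither replicate. The peak at 1939685 to 1940189 followed it by 693 bp and was held by replicate 1 alone, at q = 9.76e-06 there. The last peak, 1956678 to 1956900, was 223 bp wide, had a combined q of 1.08e-05 and was in neither. Just outside, 14867 bp to the left of the cluster, lay 1905610 to 1905994, and 4892 bp before it 1900254 to 1900717, both in neither replicate. In all, the cluster had 5 replicate 1 peaks and 6 replicate 2 peaks. Read coverage of the ChIP and input libraries over this stretch was not analysed here.

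**Figure D5:**
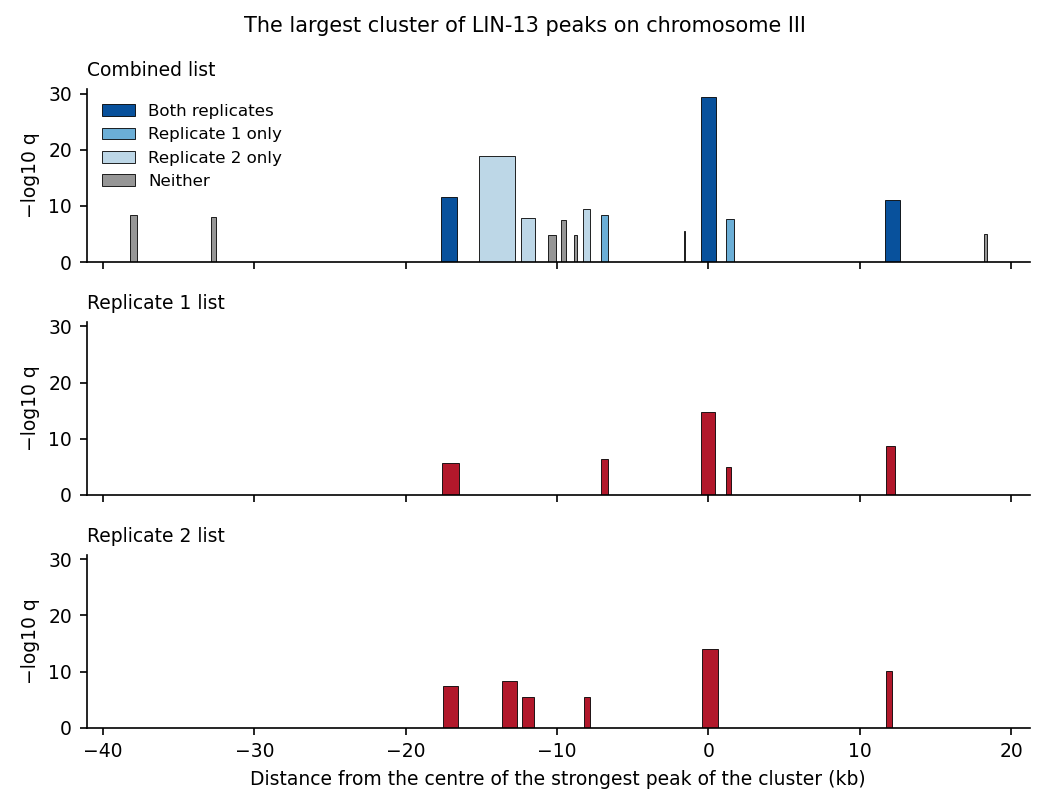
Peaks of the largest cluster of III and the 2 peaks to its left in the combined, replicate 1 and replicate 2 lists, drawn to scale by distance in kb from the centre of the strongest peak (x), with −log10 q as height (y). Both replicates mark the strongest peak and the supported peaks on either side of it, and in the dense stretch to its left they mark different peaks.

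The other clusters were smaller. The cluster of 4 peaks at 12598085 to 12613031, 14.9 kb long, had 3 peaks in both replicates, the strongest with a combined q of 4.85e-22. The cluster of 4 at 8785328 to 8802899, 17.6 kb long, had no replicate 1 peak and 3 replicate 2 peaks, and its lowest combined q was 2.39e-09. These clusters thus stood at opposite ends of replicate support. Of the 4 clusters of 3 peaks, 7153692 to 7162754 ended in the second strongest peak of the chromosome and 7707907 to 7721237 opened with the widest, for which the position relative to lin-13 is not settled. The others were 1616043 to 1627092, with 2 of its 3 peaks in both replicates, and 9618637 to 9631555, with none.

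Peaks of III with a neighbour within 10 kb were in both replicates in 25 of 79 cases (31.6%), and peaks alone in 28 of 134 (20.9%). The difference of 10.8 points had a Newcombe 95% interval of −1.21 to 23.2, which includes 0. On II, IV, V and X the same difference was −6.06 points (−13.2 to 2.19). In the right segment of III 11 of 64 peaks were in both (17.2%), against 42 of 149 in the left and central segments (28.2%), a difference of −11.0 points (−21.6 to 1.85). On the background chromosomes it was 6.53 points (−1.07 to 14.6). Whether these differences themselves differ between III and the background was not tested.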

How the data were processed

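Per the file headers, the authors' 3 deposited peak lists use WormBase WS180 coordinates and PeakSeq calls, with a q-value for each peak. No header or label used here names the read aligner, a program version, a q limit, the role of the inputs or how the combined list arose. The lists hold no read counts, so depth is unknown. The −log10 q was computed from the deposited q-value. Overlap meant at least 1 shared bp. The span of a chromosome ran to its last peak end in any list, and position was taken at the peak midpoint. Shares carry exact (Clopper-Pearson) 95% intervals, densities exact Poisson ones and differences of shares Newcombe ones. No p-value was computed, since peaks are not replicates of the experiment. The interval code was tested on simulated lists. Python 3.11.15, numpy 2.4.6 and scipy 1.17.1 were used.

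Regions named were the 15 combined peaks of lowest q among those in both replicates, the strongest of each other support class, the 5 widest, the 3 narrowest, the 3 longest gaps, the peaks of the largest cluster, the ends of clusters of at least 4 peaks and the replicate peaks missing from the combined list. The clusters of 3 peaks, the peaks at 1900254 and 1905610, the first unshared replicate 2 peak and the comparisons of neighbours and segments were chosen after their values were seen. Members and lists were chosen with earlier results of these data known. Alternatives were a 50% reciprocal overlap, midpoints within 200 bp, a q limit 10 times lower, merging within 200 bp, chaining distances of 5 and 20 kb, other spans and leaving out a replicate list. The RefSeq gene table has another build than the lists, so peaks were not assigned to genes and no sequence is shown. It gave the chromosome of lin-13 and unc-119, and its lin-13 position raised the question about the widest peak.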

Additional observations from a re-analysis of the deposited data

How the results depend on the processing

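With a q limit 10 times lower, the combined density on chromosome III was 11.9 peaks per Mb in place of 15.5, the median gap 61.4 kb in place of 46.2 kb, and 17 peaks in place of 33 lay in clusters, as a shorter list gives. Peaks in clusters numbered 14 with a chaining distance of 5 kb and 49 with 20 kb. Without the largest cluster, an alternative chosen after seeing the data, 20 did. The central 50% of the span held 49.3% of the peaks, a wider part than the central segment by construction. The 53 peaks in both replicates became 38 with the lower q limit and 46 with a 50% reciprocal overlap or midpoints within 200 bp. With a single replicate list, 68 (without replicate 2) to 87 (without replicate 1) combined peaks met it. Peaks in both replicates exceeded those in neither by 11.5 in median −log10 q, and the gap was 5.58 without replicate 1 to 7.40 without replicate 2, when peaks of 1 list alone count as supported. Median width lay between 530 and 533 bp under the alternatives run for it. Merging changed none of the values it was run for, because no gap on III was as short as 200 bp in any list. The smallest was 271 bp in the combined list, so the equal values were fixed in advance. No paired analysis was possible because the groups that share replicate numbers are ChIP and input, and no peak list of an input is among the data analysed. A peak absent from a replicate list was not called there at an unknown depth, which does not show an unbound site.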
